A study of Mus musculus with 16 samples.

Results

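The genes of respiratory complexes II and III, cytochrome c and the mitochondrial ATP synthase were compared between interscapular brown adipose tissue (BAT) and subcutaneous white adipose tissue (sWAT). Members were taken by symbol: every gene whose name in the platform annotation begins with Sdha, Sdhb, Sdhc, Sdhd, Uqc or Atp5, together with Cyc1, Cycs and Atpif1. Only probe sets that name a single gene were used, which gave 39 of the 18195 genes so measured and 76 of the 45101 probe sets on the array. The RNA came from untreated LACA mice kept on standard chow, all labelled male, and was hybridized to 16 Affymetrix mouse genome arrays. BAT and sWAT each had 4 replicates with 2 arrays per replicate. The study's methods describe 4 mice with both depots dissected from each. Whole depots were used, so that each sample is a mixture of the cells of the depot and of whatever was dissected with it. The labels do not say whether the second array of a replicate came from a second RNA extraction, and the 2 arrays were averaged before any test.

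Complex II (succinate dehydrogenase) oxidizes succinate and passes the electrons to ubiquinone, and complex III passes them on to cytochrome c while pumping protons across the inner mitochondrial membrane. ATP synthase lets the protons back through a ring of c subunits and uses their flow to make ATP. In brown adipocytes uncoupling protein 1 (Ucp1) gives the protons a way back that makes heat, and brown fat of rodents is known for much respiratory chain and little ATP synthase protein.

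The deposited values are log2 values relative to a probe set's own median across the 16 arrays, which thus stands at 0, and the level of a gene cannot be read. All 7 brown adipocyte markers were higher in BAT, Ucp1 by 7.58 ± 0.49 (adjusted p = 8.54e-05). BAT replicate 4 stood apart, with a brown adipocyte mean of 1.35, against 2.95 to 3.04 in BAT replicates 1 to 3 and -2.26 to -1.05 in sWAT. It was below BAT replicates 1 to 3 for Elovl3 (0.10, others 5.89 to 6.86), Dio2 (0.31, others 1.71 to 4.12) and Ucp1 (2.75, others 4.33 to 4.53). The same held for Ppargc1a (0.89, others 1.39 to 2.37) and Cox7a1 (2.29, others 2.64 to 2.81). Cidea (2.65, others 1.19 to 3.16) and Prdm16 (0.46, others 0.21 to 0.55) lay within the range of the others. The genes listed for white adipocytes were Lep, Adipoq and Retn, of which Adipoq did not separate the tissues. Their mean was 0.27 in BAT replicate 4, -1.30 to -0.76 in BAT replicates 1 to 3 and 0.11 to 0.64 in sWAT. Of the 3, Retn was lower in BAT (-1.61, adjusted p = 0.00500). Lep (-1.67, adjusted p = 0.0549) and Adipoq (0.21, adjusted p = 0.185) did not pass. In BAT replicate 4 Lep was at 0.75, Adipoq at 0.28 and Retn at -0.23, against 0.43 to 0.76 for Retn in sWAT. All 12 skeletal muscle fibre genes were also higher in BAT, with list means of 2.17 to 3.98 in BAT replicates and -2.0 to -1.6 in sWAT replicates. The 4 B cell, 5 T cell and 3 lymph node genes measured were all lower in BAT, with B cell means of -2.47 to -1.46 in BAT and 1.91 to 2.81 in sWAT. On 2 arrays, the second of BAT replicate 1 and the first of sWAT replicate 3, the 5' minus 3' difference of the Gapdh and Actb probe sets was -3.56 and -4.79 log2 units, against -1.23 to 0.46 on the other 14. Over all probe sets these 2 arrays correlated with their partner arrays at only 0.51 and 0.34, against 0.85 to 0.92 in the other replicates. Each was still averaged with its partner at equal weight. Against the label male, Xist was high in BAT replicates 1 to 3 and low in BAT replicate 4 and in all sWAT replicates, with Y-linked genes the other way round, so BAT and sWAT samples of equal number 1 to 3 did not match in these genes. What part the adipocyte, muscle, lymphoid and sex-linked differences have in the values below was not tested.

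Most of the 39 genes were more highly expressed in BAT. Of them 34 were higher in BAT at an adjusted p under 0.05, 1 was lower and 4 did not pass, where 21% of all genes were higher and 17.5% were lower. A difference of at least 2-fold was reached by 26 of the 39, all higher in BAT, against 7.13% of all genes. The median difference, BAT minus sWAT, was 1.2 log2 units over the 39 genes and 0.15 over all genes. Differences and their standard errors are from a limma fit across all 18195 genes that takes the replicate number as a block. Benjamini-Hochberg adjustment was over all of these genes. Where BAT and sWAT samples of equal number differed in Xist, the block does not join samples of 1 mouse. Standard errors, intervals and adjusted p-values depend on the block, while the differences do not. Without it 35 of the 39 genes were higher in BAT, with Sdhaf2 added (adjusted p = 0.0399), and 1 was lower. In 35 of the 39 genes the 4 BAT values all lay above the 4 sWAT values, which was so for 28% of all genes. In whole tissue, fewer cells of a type and less RNA per cell cannot be told apart. The labels tie no replicate to a mouse, so the p-values measure only the spread between these samples, which may in part be technical.

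**Figure D1:**
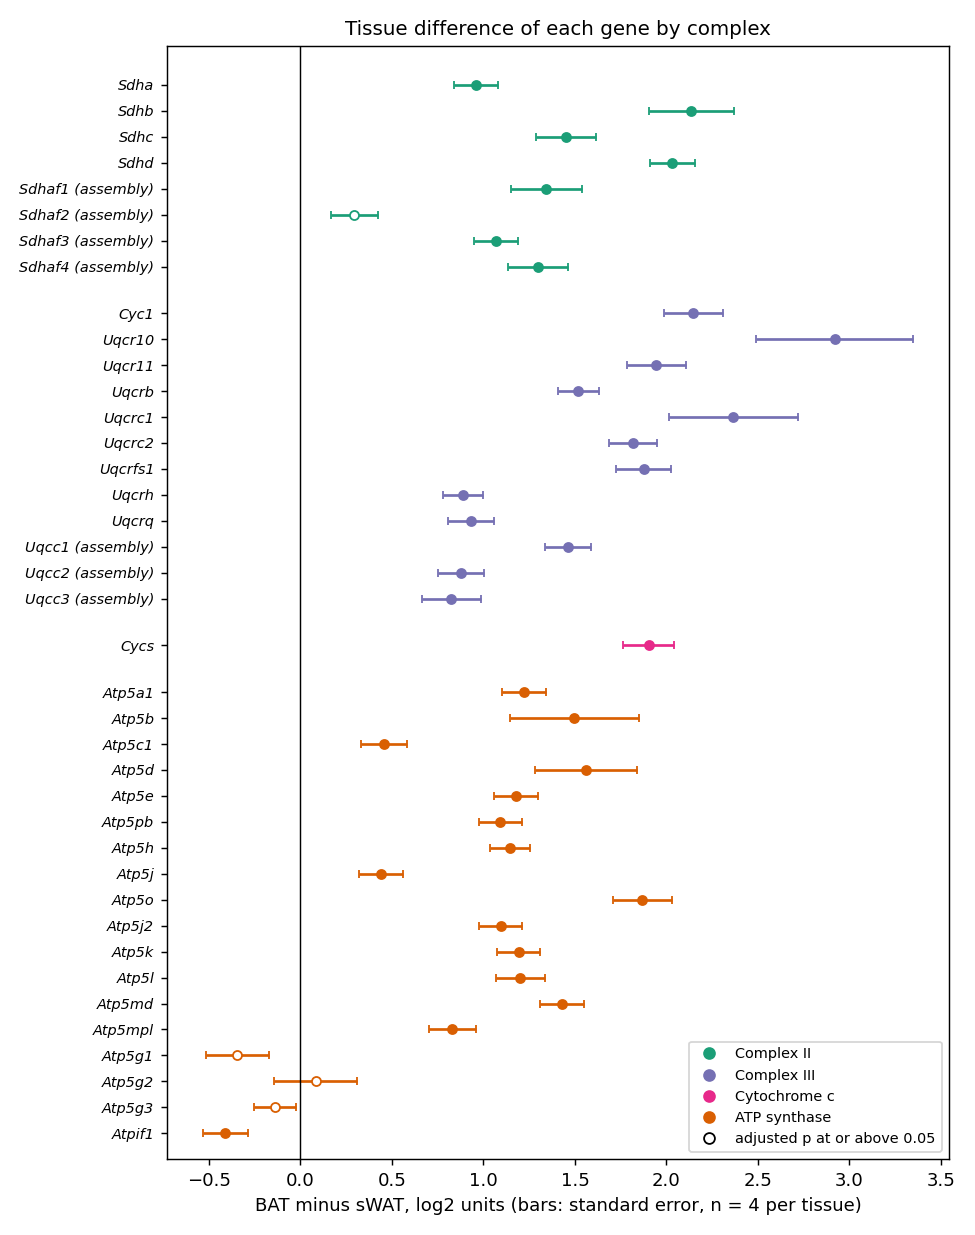
Difference of each of the 39 genes, BAT minus sWAT in log2 units on the x axis, with the standard error as a bar (n = 4 replicates per tissue) and genes grouped by complex down the page. Filled points passed an adjusted p of 0.05. The genes of complex III reach furthest to the right, with Uqcr10 at 2.92, and the subunit c genes Atp5g1, Atp5g2 and Atp5g3 and the inhibitor Atpif1 lie between -0.41 and 0.08.

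All 4 subunits of complex II were higher in BAT, by a median of 1.74 log2 units, and 3 of them at least 2-fold. Sdhb, the iron-sulfur subunit that carries electrons towards ubiquinone, was at 1.07, 1.35, 1.47 and 1.15 in BAT replicates 1 to 4 and -0.65, -0.55, -1.59 and -0.71 in sWAT replicates 1 to 4. All BAT values lay above all sWAT values, and sWAT replicate 3, of which 1 array has low 5' signal, was far below the other sWAT replicates. The difference was 2.14 ± 0.23 log2 units, a fold of 4.39 (adjusted p = 0.000571). Sdhd, which with Sdhc anchors the complex in the membrane, was at 1.11, 1.27, 1.24 and 0.81 in BAT replicates 1 to 4 and -0.84, -0.86, -0.99 and -1.02 in sWAT replicates 1 to 4. Neither tissue had a replicate that stood apart, and BAT replicate 4 was the lowest of its tissue. Sdhd was higher by 2.03 ± 0.12 log2 units, a fold of 4.09 (adjusted p = 7.35e-05). Sdhc was at 0.65, 0.86, 1.12 and 0.96 in BAT replicates 1 to 4 and -0.49, -0.38, -0.85 and -0.51 in sWAT replicates 1 to 4. Here too the tissues did not overlap, with the lowest BAT value in replicate 1 and the lowest sWAT value in replicate 3. Its difference was 1.45 ± 0.16 log2 units, a fold of 2.73 (adjusted p = 0.000639). Sdha, the flavoprotein that oxidizes succinate, was at 0.54, 0.61, 0.54 and 0.23 in BAT replicates 1 to 4 and -0.45, -0.34, -0.60 and -0.54 in sWAT replicates 1 to 4. BAT replicate 4 was the lowest of BAT but above every sWAT replicate. The difference of 0.96 ± 0.12 log2 units, a fold of 1.94 (adjusted p = 0.00103) is a mean over 4 probe sets that did not move together: 2 were higher in BAT by 1.84 and 1.78, and 2 did not pass, at 0.21 and 0.00.

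The assembly factors of complex II were split. Sdhaf1, which serves the insertion of iron-sulfur clusters into Sdhb, was at 0.67, 0.67, 1.08 and 0.59 in BAT replicates 1 to 4 and -0.60, -1.15, -0.53 and -0.10 in sWAT replicates 1 to 4. The tissues were apart, with sWAT spread widely from replicate 2 up to replicate 4. The difference was 1.34 ± 0.20 log2 units, a fold of 2.54 (adjusted p = 0.00200). Sdhaf4, which helps join Sdha to Sdhb, differed by 1.30 ± 0.16 (adjusted p = 0.00104), and Sdhaf3, which acts in the maturation of Sdhb, by 1.07 ± 0.12 (adjusted p = 0.000651). Of the 2 probe sets of Sdhaf3, 1 differed by 1.77 and the other did not pass, at 0.37. Sdhaf2, which attaches the flavin to Sdha, was at 0.01, 0.28, 0.28 and 0.07 in BAT replicates 1 to 4 and 0.00, -0.19, -0.15 and -0.20 in sWAT replicates 1 to 4. All BAT values were above all sWAT values, but BAT replicate 1 and sWAT replicate 1 almost met. Its difference of 0.30 ± 0.13 did not pass (adjusted p = 0.109), with a 95% interval from -0.01 to 0.60. It was 0.15 on the second arrays alone (adjusted p = 0.443) and 0.44 on the first arrays alone, where it passed (adjusted p = 0.0449). It also passed without the replicate block (adjusted p = 0.0399) and without the 2 arrays of low 5' signal (0.33, adjusted p = 0.0290), and under no other alternative.

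For Sdhd the promoter is shown, because it holds matches to a pair of motifs that recur among these genes. The sequence is RefSeq's on build GRCm38.p6, chr9:50603850-50604099, minus strand, 250 bases ending at the base before the transcript start. Capitals mark the letters GCGCANGCG of nuclear respiratory factor 1 (NRF-1), 79 bases before the start, and CCGGAAG of GA-binding protein (GABP), 46 bases before it, each searched on both strands.
Sdhd: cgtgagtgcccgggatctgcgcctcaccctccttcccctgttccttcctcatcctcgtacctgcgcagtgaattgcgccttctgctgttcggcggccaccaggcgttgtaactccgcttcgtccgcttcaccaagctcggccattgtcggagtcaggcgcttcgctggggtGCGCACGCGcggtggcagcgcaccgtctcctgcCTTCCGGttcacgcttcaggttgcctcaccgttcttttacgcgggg
In this window NRF-1 letters stand in 8% and GABP letters in 10.2% of the promoters of 17491 protein-coding genes. A match to letters is a description of the sequence and no sign that a factor binds there.

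All 9 subunits of complex III were higher in BAT, by a median of 1.88 log2 units, and 7 of them at least 2-fold. Uqcr10, a small subunit of the membrane part, had the largest difference of the 39 genes. It was at 1.61, 1.29, 1.47 and 0.73 in BAT replicates 1 to 4 and -3.17, -0.95, -1.17 and -1.28 in sWAT replicates 1 to 4. The tissues were far apart, and sWAT replicate 1 lay well below the other sWAT replicates on both of its arrays (-3.01 and -3.33). Uqcr10 was higher by 2.92 ± 0.43 log2 units, a fold of 7.56 (adjusted p = 0.00211), and without replicate 1 by 2.30 (adjusted p = 0.000984). Uqcrc1, a core protein, was at 1.13, 2.17, 2.28 and 1.89 in BAT replicates 1 to 4 and -0.16, 0.00, -1.48 and -0.36 in sWAT replicates 1 to 4. BAT replicate 1 and sWAT replicate 3, the replicates with an array of low 5' signal, were the lowest of their tissues. The difference was 2.37 ± 0.35 log2 units, a fold of 5.15 (adjusted p = 0.00222), and the other core protein, Uqcrc2, differed by 1.82 ± 0.13 (adjusted p = 0.000116).

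The subunits that carry the electrons were among the higher ones. Cyc1, cytochrome c1, was at 1.16, 1.38, 1.51 and 1.23 in BAT replicates 1 to 4 and -0.74, -0.67, -1.16 and -0.76 in sWAT replicates 1 to 4. The BAT values were close to each other and the lowest of them stood well above the highest sWAT value. Cyc1 was higher in BAT by 2.15 ± 0.16 log2 units, a fold of 4.43 (adjusted p = 0.000133). Uqcrfs1, the Rieske iron-sulfur protein, was at 0.99, 1.0, 1.17 and 0.85 in BAT replicates 1 to 4 and -0.72, -0.73, -1.17 and -0.88 in sWAT replicates 1 to 4. BAT replicate 4 and sWAT replicate 3 were the lowest of their tissues, which did not overlap. Its difference was 1.88 ± 0.15 log2 units, a fold of 3.67 (adjusted p = 0.000172). Of the small subunits, Uqcr11 differed by 1.95 ± 0.16 (adjusted p = 0.000196) and Uqcrb, which lies near the ubiquinone site, by 1.52 ± 0.11 (adjusted p = 0.000129). The smallest differences were those of Uqcrq, at 0.93 ± 0.13 (adjusted p = 0.00145), and of Uqcrh, the hinge protein that contacts cytochrome c1. Uqcrh was at 0.46, 0.48, 0.46 and 0.48 in BAT replicates 1 to 4 and -0.43, -0.39, -0.37 and -0.47 in sWAT replicates 1 to 4. These were the most even values of the complex, close within each tissue and well apart between them, for a difference of 0.89 ± 0.11 log2 units, a fold of 1.85 (adjusted p = 0.000992). The 4 probe sets of Uqcrq ranged from 0.33 to 1.83, and 2 of them passed.

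The 3 assembly factors of complex III, which act early, on the subunit encoded in mitochondria, were higher in BAT too, 1 of them at least 2-fold. Uqcc1 was at 0.85, 0.96, 1.13 and 1.12 in BAT replicates 1 to 4 and -0.43, -0.35, -0.50 and -0.51 in sWAT replicates 1 to 4. The tissues were well apart and the sWAT replicates nearly equal. Its difference of 1.46 ± 0.13 log2 units, a fold of 2.76 (adjusted p = 0.000226) is a mean over probe sets at 2.30, 2.0 and 0.09, of which the last did not pass. Uqcc2, the partner of Uqcc1, differed by 0.88 ± 0.13 (adjusted p = 0.00183). Uqcc3 was at 0.31, 0.74, 0.86 and 0.77 in BAT replicates 1 to 4 and -0.07, -0.06, -0.41 and -0.09 in sWAT replicates 1 to 4. BAT replicate 1 was low in BAT and sWAT replicate 3 low in sWAT, yet they did not overlap. The difference was 0.82 ± 0.16 log2 units, a fold of 1.77 (adjusted p = 0.00682), and on the second arrays alone 0.42 (adjusted p = 0.172).

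Cycs, the cytochrome c that carries electrons from complex III to complex IV, was at 1.24, 1.18, 0.98 and 0.63 in BAT replicates 1 to 4 and -0.89, -0.62, -1.13 and -0.94 in sWAT replicates 1 to 4. BAT replicate 4 was the lowest in BAT, and it still lay more than a log2 unit above the highest sWAT replicate. The difference was 1.90 ± 0.14 log2 units, a fold of 3.74 (adjusted p = 0.000130), and each of its 4 probe sets passed, at 2.38, 2.34, 1.2 and 1.70. The promoter of Cycs (RefSeq, GRCm38.p6, chr6:50566570-50566819, minus strand, 250 bases before the start) is shown as that of the soluble carrier of the set, and capitals mark an NRF-1 match 61 bases before the start.
Cycs: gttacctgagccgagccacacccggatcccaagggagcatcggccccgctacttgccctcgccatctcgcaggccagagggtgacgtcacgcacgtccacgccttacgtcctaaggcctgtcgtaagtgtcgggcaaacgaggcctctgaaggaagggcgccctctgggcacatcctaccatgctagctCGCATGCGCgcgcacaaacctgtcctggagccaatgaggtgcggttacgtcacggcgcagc

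ATP synthase had a lower median difference than complexes II and III, a contrast between complexes that was not tested. Of its 17 subunit genes 14 were higher in BAT, 11 of them at least 2-fold, and 3 did not pass, with a median of 1.14 log2 units. The catalytic F1 head was higher in all 5 subunits, by a median of 1.22. Atp5b, the catalytic beta subunit, was at 0.45, 1.08, 1.36 and 1.21 in BAT replicates 1 to 4 and -0.15, 0.00, -1.61 and -0.14 in sWAT replicates 1 to 4. The tissues did not overlap, but BAT replicate 1 and sWAT replicate 3 stood far below the others of their tissue. Their arrays of low 5' signal read -0.47 in BAT replicate 1 and -2.93 in sWAT replicate 3, against 1.37 and -0.28 on the other arrays of these replicates. Atp5b was higher by 1.5 ± 0.35 log2 units, a fold of 2.82 (adjusted p = 0.0151), by 1.40 without these 2 arrays (adjusted p = 0.000175) and by 0.85 on the second arrays alone (adjusted p = 0.0787).

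Atp5d, the delta subunit of the central stalk, was at 0.36, 1.07, 1.18 and 1.05 in BAT replicates 1 to 4 and -0.50, -0.28, -1.5 and -0.31 in sWAT replicates 1 to 4. It had the same low replicates as Atp5b and no overlap of the tissues. The difference was 1.56 ± 0.28 log2 units, a fold of 2.95 (adjusted p = 0.00474), 1.54 without the 2 arrays (adjusted p = 0.000135) and 0.91 on the second arrays alone (adjusted p = 0.0567). Atp5a1, the alpha subunit, differed by 1.22 ± 0.12 (adjusted p = 0.000367) and Atp5e, the epsilon subunit, by 1.18 ± 0.12 (adjusted p = 0.000444). Atp5c1, the gamma subunit that turns within the head, was at 0.11, 0.31, 0.30 and 0.27 in BAT replicates 1 to 4 and -0.13, -0.16, -0.41 and -0.13 in sWAT replicates 1 to 4. BAT lay above sWAT in every replicate, by little in replicate 1. Its difference was 0.46 ± 0.13 log2 units, a fold of 1.37 (adjusted p = 0.0273). Of its probe sets 1 was higher by 0.97 and the other, of the type designed to match a single gene, was at -0.05. The call of Atp5c1 was lost without replicate 2 (0.45, adjusted p = 0.113), replicate 3 (0.37, 0.0671) or replicate 4 (0.48, 0.0706).

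The peripheral stalk, which holds the head still, was higher in all 4 genes, by a median of 1.12, but unevenly. Atp5o, the oligomycin sensitivity conferring protein at the top of the stalk, was at 0.92, 1.37, 1.31 and 1.23 in BAT replicates 1 to 4 and -0.59, -0.47, -1.07 and -0.52 in sWAT replicates 1 to 4. The tissues were far apart, with BAT replicate 1 and sWAT replicate 3 the lowest of each. The difference of 1.87 ± 0.16 log2 units, a fold of 3.65 (adjusted p = 0.000229) was the largest of the ATP synthase. Atp5h, subunit d, differed by 1.14 ± 0.11 (adjusted p = 0.000339) and Atp5pb, subunit b, by 1.09 ± 0.12 (adjusted p = 0.000533). Atp5j, the coupling factor F6, was at 0.17, 0.26, 0.03 and 0.20 in BAT replicates 1 to 4 and -0.21, -0.22, -0.24 and -0.42 in sWAT replicates 1 to 4. BAT replicate 3 was near 0 and sWAT replicate 4 was the lowest, without overlap of the tissues. The difference was 0.44 ± 0.12 log2 units, a fold of 1.36 (adjusted p = 0.0260), and it no longer passed without replicate 1 (0.46, adjusted p = 0.0546), replicate 2 (0.42, 0.119) or replicate 4 (0.38, 0.108), nor on the first arrays alone (0.35, 0.135).

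The membrane part outside the c ring was higher in all 5 genes, by a median of 1.19. Atp5md, a small membrane subunit also called DAPIT, was at 0.87, 0.62, 0.57 and 0.39 in BAT replicates 1 to 4 and -0.79, -0.71, -0.76 and -1.01 in sWAT replicates 1 to 4. Both tissues were lowest in replicate 4, and they did not overlap. The difference was 1.43 ± 0.12 log2 units, a fold of 2.70 (adjusted p = 0.000207). Atp5mpl, a small proteolipid of the complex, was at 0.41, 0.62, 0.48 and 0.56 in BAT replicates 1 to 4 and -0.27, -0.09, -0.66 and -0.23 in sWAT replicates 1 to 4. Here sWAT replicate 3 was the lowest by a wide margin. The difference was 0.83 ± 0.13 log2 units, a fold of 1.78 (adjusted p = 0.00254). Between these lay the subunits e, f and g of the membrane arm, with Atp5k at 1.19 ± 0.12 (adjusted p = 0.000373), Atp5j2 at 1.09 ± 0.12 (adjusted p = 0.000530) and Atp5l at 1.2 ± 0.13 (adjusted p = 0.000583).

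**Figure D2:**
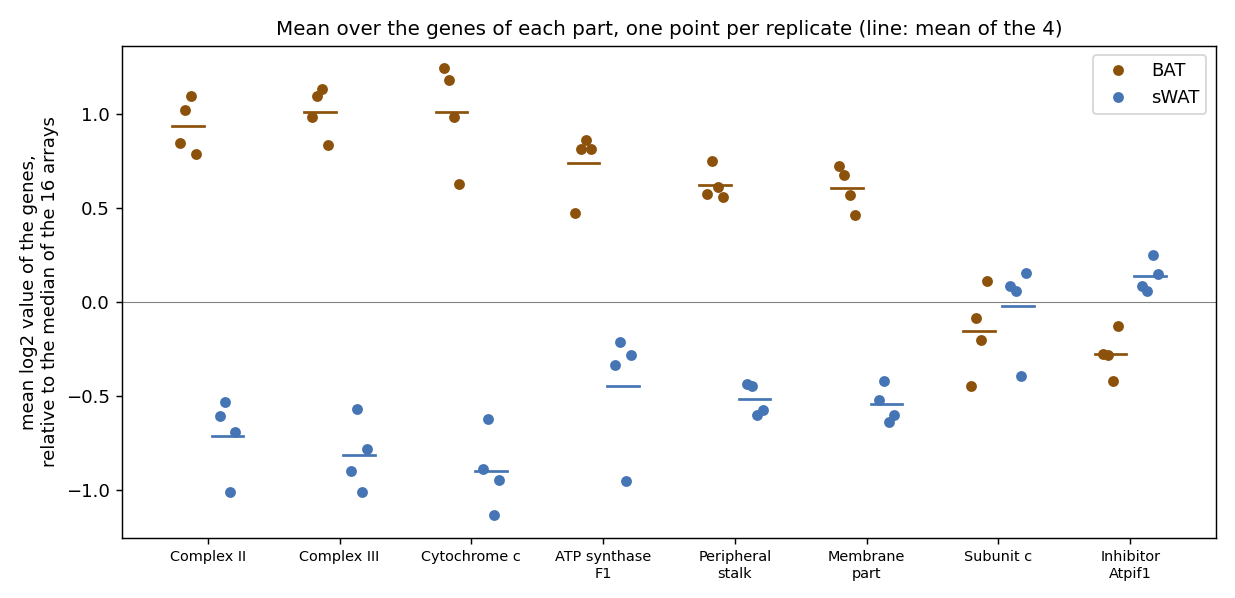
Mean log2 value over the genes of each complex or part (y axis, relative to the median of the 16 arrays), a point per replicate, with BAT left of sWAT in each pair and a line at the mean of the 4 replicates. BAT lies above sWAT without overlap from complex II to the membrane part, the 4 points overlap for subunit c, and for Atpif1 BAT lies below sWAT.

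None of the genes of the c ring passed. Subunit c is encoded by Atp5g1, Atp5g2 and Atp5g3, whose proteins differ in the presequence that is removed on import while the mature sequence is shared. Atp5g1 was at -0.81, -0.22, -0.51 and 0.30 in BAT replicates 1 to 4 and 0.12, 0.09, -0.47 and 0.39 in sWAT replicates 1 to 4. The tissues overlapped broadly, with BAT replicate 1 the lowest value of all and BAT replicate 4 near the top. The difference was -0.34 ± 0.17, with a 95% interval from -0.75 to 0.06 (adjusted p = 0.148). Atp5g2 was at -0.51, 0.01, 0.11 and 0.10 in BAT replicates 1 to 4 and 0.08, 0.00, -0.78 and 0.07 in sWAT replicates 1 to 4. Other than BAT replicate 1 and sWAT replicate 3, each with an array of low 5' signal, the values of both tissues lay close to 0. The difference was 0.08 ± 0.23, with an interval from -0.45 to 0.62 (adjusted p = 0.778). Atp5g3 was at -0.03, -0.04, -0.20 and -0.06 in BAT replicates 1 to 4 and 0.06, 0.09, 0.07 and -0.01 in sWAT replicates 1 to 4. All BAT values lay below all sWAT values, by little. The difference was -0.14 ± 0.11, with an interval from -0.41 to 0.13 (adjusted p = 0.347).

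The intervals apply to the fitted difference of each gene, a mean over its probe sets and arrays. They set no bound on how much higher subunit c could be in BAT. For Atp5g2 the probe set at 0.51 had an interval from -0.49 to 1.51. Its other probe sets, at 0.19 and -0.44, had intervals from -0.13 to 0.51 and from -1.06 to 0.17. The gene intervals of Atp5g1 and Atp5g3 lay below those of all 14 other ATP synthase subunits. The gene interval of Atp5g2 lay below 11 of the 14. The 3 genes were also compared with each other within each sample. Atp5g1 minus Atp5g2 averaged -0.24 ± 0.34 in BAT and 0.19 ± 0.15 in sWAT (SD, n = 4 each), a difference of -0.43 that did not pass an exact two-sided permutation test over samples (p = 0.0857, adjusted over the 3 pairs of genes 0.257). For Atp5g1 minus Atp5g3 the difference was -0.21 (exact permutation p = 0.514) and for Atp5g2 minus Atp5g3 it was 0.22 (exact permutation p = 0.486, adjusted 0.514). The smallest p that 4 against 4 allow is 0.0286 before adjustment. After adjustment over the 3 pairs, a single pair could not pass unless another also had a small p. A larger p does not show that the 3 genes are alike.

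The values of subunit c depended on single arrays. On the low arrays Atp5g1 read -1.35 in BAT replicate 1 and -1.15 in sWAT replicate 3, against -0.26 and 0.21 on their partner arrays. Atp5g2 read -1.01 in BAT replicate 1 and -1.70 in sWAT replicate 3, against -0.01 and 0.14. Without these 2 arrays Atp5g1 was called lower in BAT, at -0.38 (adjusted p = 0.0442) and Atp5g2 was at -0.02 (adjusted p = 0.869). A choice made after seeing the data was to leave out the sWAT array alone, which keeps the low BAT array. Atp5g1 was then at -0.51 (adjusted p = 0.0317) and Atp5g2 at -0.15 (adjusted p = 0.393). The first arrays alone, which hold only the low sWAT array, gave 0.06 for Atp5g1 and 0.49 for Atp5g2. The second arrays alone, which hold only the low BAT array, gave -0.75 (adjusted p = 0.0462) and -0.32. Leaving out replicate 1, and with it the low BAT array, put Atp5g1 at -0.15 and Atp5g2 at 0.31. Leaving out replicate 3, and with it the low sWAT array, put Atp5g2 at -0.18. Under none of these was a subunit c gene called higher in BAT. Atp5g3 kept its values on the low arrays, at 0.00 in BAT replicate 1 and 0.13 in sWAT replicate 3.

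**Figure D3:**
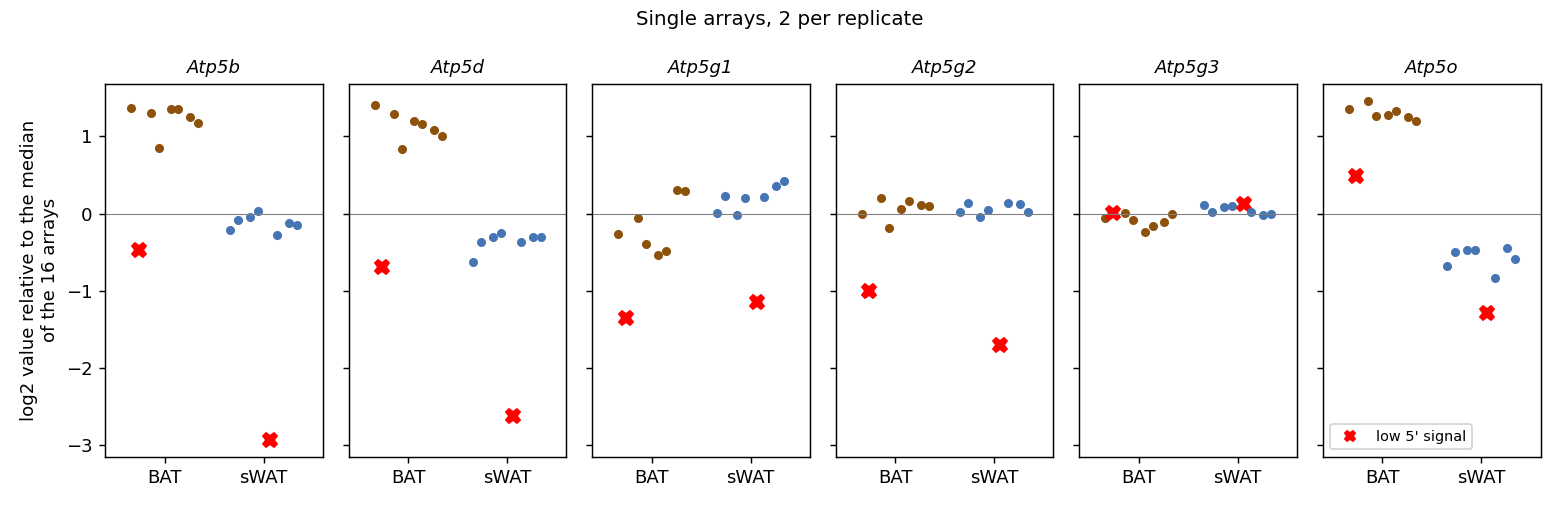
Log2 value of each single array, relative to the median of the 16, for 6 ATP synthase genes, with BAT left of sWAT and the arrays of a replicate side by side. Crosses are the 2 arrays of low 5' signal. They lie far below the other arrays for Atp5b, Atp5d, Atp5g1 and Atp5g2, and with the other arrays for Atp5g3.

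Atpif1, the inhibitor that keeps ATP synthase from running backwards as an ATPase, was the single member lower in BAT. It was at -0.27, -0.28, -0.42 and -0.13 in BAT replicates 1 to 4 and 0.08, 0.06, 0.25 and 0.15 in sWAT replicates 1 to 4. The tissues did not overlap, and BAT replicate 4 was the highest of BAT. The difference was -0.41 ± 0.12, a fold of 0.752 (adjusted p = 0.0362). Its 95% interval ran from -0.70 to -0.12. Of its 3 probe sets 1 was lower, at -0.94 (adjusted p = 0.0112), and the others were at -0.29 and 0.00. The call was lost when any 1 of the 4 replicates was left out, though the difference changed little. Without replicate 1, 2, 3 or 4 it was -0.43, -0.43, -0.33 or -0.46, with adjusted p of 0.0735, 0.117, 0.0837 and 0.0725. The call was also lost on the second arrays alone (-0.31, adjusted p = 0.110). On these, which hold the BAT array of low 5' signal, Atp5g1 was the member called lower. The call of Atpif1 held on the first arrays alone (-0.51, adjusted p = 0.0297) and without the replicate block (-0.41, adjusted p = 0.00737). The median over the probe sets gave -0.23 (adjusted p = 0.159) and scaling to 3' Gapdh and Actb -0.39 (adjusted p = 0.462). Using only probe sets without an _s, _x or _a suffix, which drops the one at -0.94, gave -0.15 (adjusted p = 0.354).

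**Figure D4:**
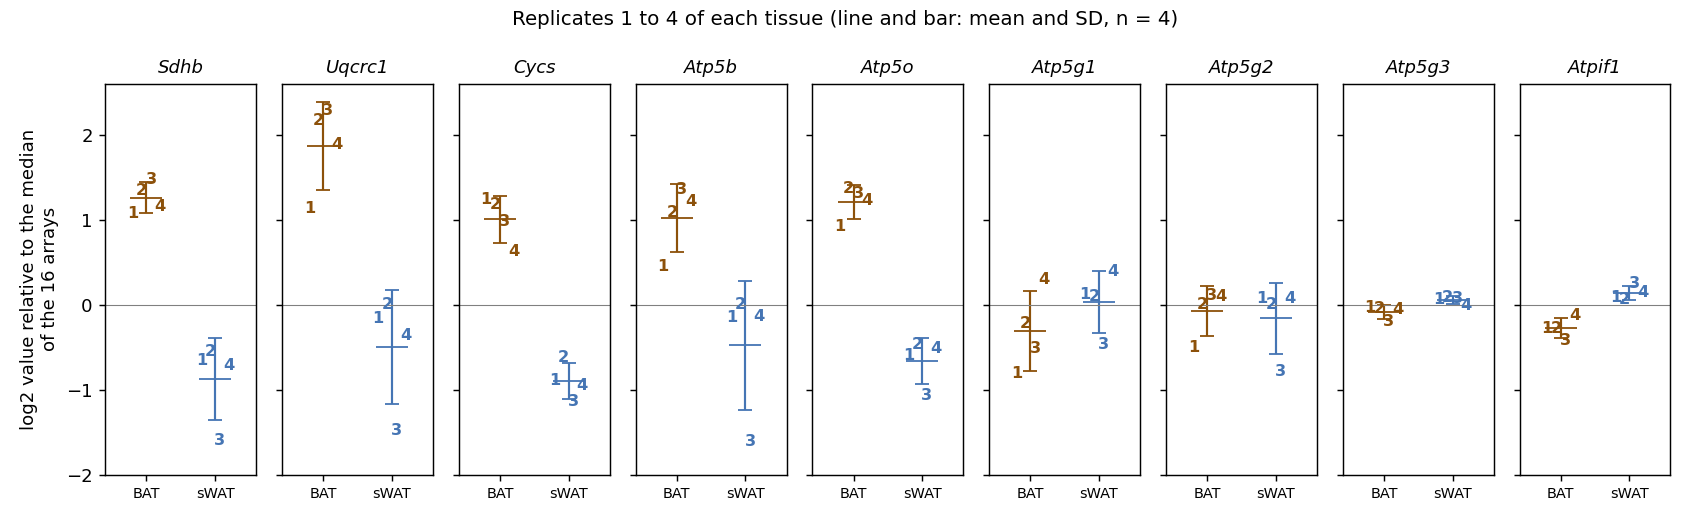
Values of the 4 replicates, drawn as their numbers, for 9 genes in log2 units relative to the median of the 16 arrays, with BAT left of sWAT and lines and bars for the mean and SD (n = 4). Sdhb, Uqcrc1, Cycs, Atp5b and Atp5o are higher in all 4 BAT replicates, Atp5g1 and Atp5g2 overlap, and Atp5g3 and Atpif1 lie slightly lower in BAT.

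The promoters of Atp5g1, Atp5g2 and Atpif1 are shown as those of genes not higher in BAT, to be read beside Sdhd and Cycs. They are RefSeq's on GRCm38.p6, minus strand, and end at the base before the start or before the gene's annotated extent: chr11:96075695-96075881 for Atp5g1, chr15:102671048-102671297 for Atp5g2 and chr4:132535451-132535664 for Atpif1. Capitals mark overlapping NRF-1 matches on the opposite strands 42 and 41 bases before the start of Atp5g2, and in Atpif1 an NRF-1 match 141 and a Yin Yang 1 (YY1, AANATGGCG) match 177 bases before the start.
Atp5g1: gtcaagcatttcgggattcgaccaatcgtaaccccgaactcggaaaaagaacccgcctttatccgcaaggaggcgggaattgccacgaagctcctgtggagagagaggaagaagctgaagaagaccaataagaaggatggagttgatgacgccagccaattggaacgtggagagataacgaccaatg
Atp5g2: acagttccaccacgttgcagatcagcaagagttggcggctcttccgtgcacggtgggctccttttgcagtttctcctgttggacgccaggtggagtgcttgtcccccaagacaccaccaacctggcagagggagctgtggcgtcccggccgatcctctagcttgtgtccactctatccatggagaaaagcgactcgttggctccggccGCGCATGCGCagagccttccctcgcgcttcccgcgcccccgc
Atpif1: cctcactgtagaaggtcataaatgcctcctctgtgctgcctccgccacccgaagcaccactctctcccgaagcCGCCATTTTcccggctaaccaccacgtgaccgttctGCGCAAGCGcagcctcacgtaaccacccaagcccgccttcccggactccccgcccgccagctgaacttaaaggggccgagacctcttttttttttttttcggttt
The window of Atp5g1 held none of the motifs searched. That of Atp5g3, not printed, held TNAAGGTCA of the estrogen-related receptors (ERR) 52 bases before the start, the only such match among the members.

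A promoter was found for 32 of the 39 genes. NRF-1 letters stood in 11 of the 32 (34.4%), GABP letters in 9 (28.1%), YY1 letters in 3 (9.38%) and ERR letters in 1 (3.12%). Over all promoters the shares were 8%, 10.2%, 1.56% and 1.11%. By group, NRF-1 letters stood in 2 of 3 complex II promoters, in 0 of 5 of complex III, in 1 of 4 of the F1 head, in 2 of 4 of the membrane part and in 1 of 3 of subunit c. Genes with and without a match were thus found both among those higher in BAT and among those that were not.

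The probe sets show how even the differences were within genes. In BAT 58 of the 76 probe sets were higher, 46 of them at least 2-fold, while 1 was lower and 17 missed the threshold, where 15.1% of all probe sets were higher. Of the 24 genes with several probe sets, 8 had probe sets more than 1 log2 unit apart, and 5 had some that passed as higher beside some that did not pass: Sdha, Sdhaf3, Uqcc1, Uqcrq and Atp5c1. The widest spread was that of Uqcc1. Uqcr10 spread from 1.93 to 3.73 with all 3 probe sets higher. Uqcrc2 had the closest pair, 0.03 log2 units apart. For Atp5g2 the 3 probe sets were at 0.51, 0.19 and -0.44 and for Atp5g1 the pair was at -0.63 and -0.06, and none of the 5 passed. Which transcripts the probe sets detect was not tested.

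**Figure D5:**
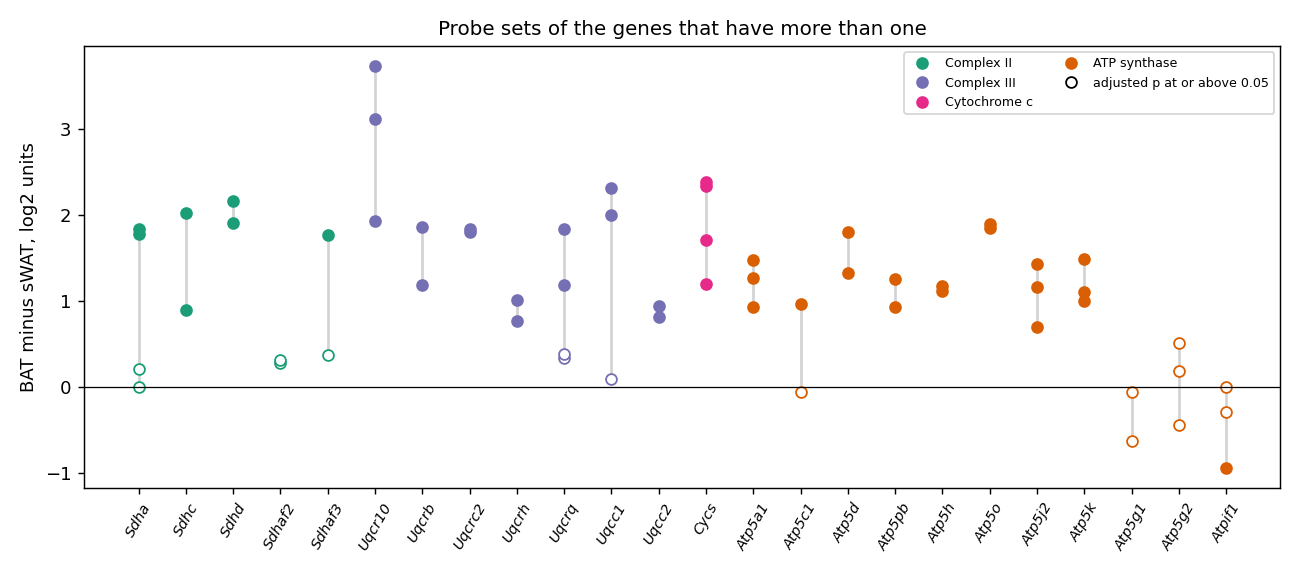
Difference of each probe set, BAT minus sWAT in log2 units, for the 24 genes with more than 1 probe set, joined by a line within a gene. Filled points passed an adjusted p of 0.05 over all probe sets. Sdha, Uqcr10 and Uqcc1 span the widest ranges, and the lowest point is a probe set of Atpif1 at -0.94.

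Over the 39 genes the 2 arrays of low 5' signal read below their partner arrays in 31 genes in BAT replicate 1 (median -0.33, with 10 genes more than 1 log2 unit lower) and in 26 genes in sWAT replicate 3 (median -0.24, with 6 such genes). Without both arrays 35 genes were higher in BAT and 2 were lower. The BAT minus sWAT difference of the mean over the 39 genes was 1.13, 1.17, 1.46 and 1.11 log2 units in replicate numbers 1 to 4, and number 3 with its low sWAT array was the largest. In number 4 BAT and sWAT matched in Xist, and in numbers 1 to 3 they did not. The mean of the 39 genes was 0.60 in BAT replicate 4. That replicate had the lowest brown adipocyte mean of BAT (1.35), the highest mean of Lep, Adipoq and Retn (0.27) and the highest muscle mean (3.98). In BAT replicates 1 to 3 the mean of the 39 genes was 0.62, 0.77 and 0.74. Their muscle means were 2.19, 3.18 and 2.17. Without replicate 4, 32 members were higher in BAT and Atpif1 lost its call. The single genes of the brown and white adipocyte lists did not all differ alike in BAT replicate 4. What part they have in these values was not tested.

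By complex, the difference of the mean was 1.45, 1.55, 2.10 and 1.48 for complex II, 1.88, 1.66, 2.14 and 1.61 for complex III and 0.75, 0.88, 1.2 and 0.89 for the ATP synthase subunits in numbers 1 to 4. In each number it was lowest for ATP synthase. For subunit c the values were -0.53, -0.15, 0.19 and -0.04, without a common direction. In the order of differences over all 18195 genes, the complex III subunits had a median at the 98.2 percentile and those of complex II at 97.5, the F1 head at 94.8, and subunit c at 29.9.

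The complexes on either side gave a similar picture. Of the 34 genes of complex I measured, 32 were higher in BAT and 0 were lower, by a median of 1.6 log2 units, with Ndufv1, which binds NADH, at 2.43 ± 0.27 (adjusted p = 0.000610). Of 15 genes of complex IV 13 were higher and 0 were lower, with a median of 1.2. These stood at both ends, with Cox7a1, an isoform of brown fat and muscle, at 6.13 ± 0.36 (adjusted p = 6.54e-05) and Cox7c, a subunit found in all tissues, at -0.49 ± 0.20 (adjusted p = 0.0887). Assembly factors outside the symbols of the rule were higher in 8 of 9, with a median of 1.42. Fmc1, an assembly factor of the F1 head known from yeast, differed by 2.58 ± 0.28 (adjusted p = 0.000555) and Tmem70, which serves the building of the c ring, by 1.83 ± 0.12 (adjusted p = 8.29e-05). Lyrm7, a chaperone of the Rieske protein, did not pass, at 0.28 ± 0.12 (adjusted p = 0.103). The genes encoded in mitochondria, among them cytochrome b and ATP synthase subunits a and A6L, were not measured here by a named probe set.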

How the data were processed

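Members and gene lists were chosen with earlier results of these data known. The arrays were normalized by the authors with RMA and quantile normalization in GeneSpring, and the deposited log2 values give each probe set relative to its own median across the 16 arrays. Signal levels cannot be read from them. Precision is limited by the number of replicates, 4 per tissue. The 2 arrays of a replicate and the single-symbol probe sets of a gene were averaged (34958 probe sets, 18195 genes, with 932 probe sets naming several genes and 9211 naming none). BAT minus sWAT was fitted in R 4.3.3 by lmFit and eBayes of limma 3.58.1. The replicate number was a block because the study's methods use a paired test, and adjustment was by Benjamini-Hochberg. Genes with an adjusted p under 0.05 were called. The fit was checked on simulated data with 200 changed genes, drawn without a replicate block or shared low arrays. The simulated shifts were larger than the smaller differences called here, so the check does not bear on those calls.

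Values in every sample were given, by rule, for the largest and smallest difference in each complex, genes that did not pass, the cytochromes, the Rieske protein, complex II, Atp5b, the subunit c genes and Atpif1. Uqcrc1, Atp5d and further single genes were added. Other genes came from lists of complexes I and IV, assembly factors and cell type markers. Alternatives were the fit without the block, either array of a replicate alone, the fit without the 2 arrays of low 5' signal, 2 other scalings, the methods' paired t-test, other uses of the probe sets and leaving out each replicate. Motifs were searched in the 250 bases before RefSeq starts. Bases inside a gene's annotated extent were not printed. Figures were drawn with matplotlib 3.10.9.

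Whether equal numbers pair the samples was checked by the correlation of their deviations from the tissue means, which was -0.15, 0.08, -0.34 and 0.26 for numbers 1 to 4. The labels do not say that a number marks a mouse. Xist was at 5.74 to 6.36 in BAT replicates 1 to 3 and -0.27 to -0.11 in sWAT replicates 1 to 3. In these numbers the block therefore does not join samples of 1 mouse.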

Additional observations from a re-analysis of the deposited data

Results flagged for a closer look

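In 11 of the 78 sets of 4 replicates formed by the 39 genes and the 2 tissues, a replicate stood apart from the other 3, where chance gives about 1 in 20. Values are log2 units relative to the median of the 16 arrays. BAT replicate 1, of which 1 array has low 5' signal, was low for Atp5d (0.36, others 1.05 to 1.18) and Atp5g2 (-0.51, others 0.01 to 0.11). BAT replicate 3 was high for Sdhaf1 (1.08, others 0.59 to 0.67) and low for Atp5g3 (-0.20, others -0.06 to -0.03). In sWAT, replicate 3, which also has an array of low 5' signal, was low for Sdhb (-1.59, others -0.71 to -0.55), Uqcc3 (-0.41, others -0.09 to -0.06), Atp5b (-1.61, others -0.15 to 0.00), Atp5c1 (-0.41, others -0.16 to -0.13) and Atp5g2 (-0.78, others 0.00 to 0.08). Replicate 1 of sWAT was low for Uqcr10 (-3.17, others -1.28 to -0.95), and replicate 4 of sWAT was low for Atp5j (-0.42, others -0.24 to -0.21).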

How the results depend on the processing

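Of the gene values under the alternatives, 497 kept their direction and their side of the threshold, 31 lost their call, 6 gained one and 6 turned. Those that turned were Atp5g1 on the first arrays alone (0.0626), Atp5g2 on the second arrays alone (-0.32), without the 2 arrays of low 5' signal (-0.0202), without the sWAT array of these alone (-0.15) and without replicate 3 (its range without a replicate was -0.18 to 0.31), and Atp5c1 on probe sets without an _s, _x or _a suffix (-0.0522, with 33 of the members left). The count of members higher in BAT stayed between 26 and 35. The lowest count was that of the methods' paired t-test, under which 9 members lost their call, Atpif1 among them. The count of members lower in BAT was 2 without the 2 low arrays or the sWAT one alone, each time with 1 ATP synthase subunit among them, as also on the second arrays alone, where Atp5g1 passed and Atpif1 did not (-0.31, adjusted p = 0.11). It was 0 with scaling to 3' Gapdh and Actb, with the methods' paired t-test, with the median over probe sets, with probe sets without these suffixes and without any one of the 4 replicates (0 to 0). Over all genes, scaling to Gapdh and Actb called 1885 higher and 1886 lower, the methods' paired t-test called 1830 and 1737, and leaving out a replicate gave 2338 to 3698 higher. The fit without the replicate block called 5092 genes higher and 3481 lower, and 35 members higher and 1 lower. For the pairs of subunit c genes, Atp5g1 minus Atp5g3 turned on the first arrays alone (0.24) and on probe sets without these suffixes (0.0771), and ranged from -0.35 to 0.00121 without a replicate. Atp5g2 minus Atp5g3 turned on the second arrays alone (-0.22) and without the sWAT low array (-0.0208), and ranged from -0.0905 to 0.46 without a replicate. The first arrays hold only the sWAT array of low 5' signal, and the second arrays only the BAT one. The causes were not tested. Centring each array on its median put the median of all genes at 0.09, against 0.15 as reported.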
